A study of Mus musculus with 11 samples.

Results

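The EGF receptor and 7 genes that encode its ligands or close relatives of them were described in cultured mouse lung fibroblasts with and without cGAS, the cytosolic DNA sensor encoded by Cgas. The family was selected on Ereg, chosen by its CPM in KO against WT libraries, where it had been seen to be lower in KO. The other 7 genes, Areg, Hbegf, Tgfa, Epgn, Btc, Nrg1 and Egfr, were added as members of its family whatever their own values, which gave 8 of the 56980 genes in the files. Total RNA, depleted of ribosomal RNA, was sequenced from primary lung fibroblasts, connective tissue cells grown from the lung, with 1 library per mouse. The groups were cGAS KO females (n = 3), cGAS KO males (n = 3), wild-type (WT) females (n = 2) and WT males (n = 3). Culture was at 37 °C, 5% CO2 and 5% O2, in medium with 15% serum, for every group. No treatment, mouse strain, age, passage number or kind of Cgas allele was given in the sources used here. Levels are CPM, counts scaled to each library's size after TMM scaling, and differences are fitted log2 differences with their standard error (SE).

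The EGF family ligands are made as membrane proteins whose outer part is cut free by metalloproteases, chiefly ADAM17 and ADAM10. The freed ligands bind receptor tyrosine kinases of the ERBB family on the same or neighbouring cells. EGFR binds epiregulin, amphiregulin, heparin-binding EGF-like growth factor, transforming growth factor alpha, epigen and betacellulin, whereas neuregulin 1 binds ERBB3 and ERBB4. Receptor binding starts the RAS and ERK kinase cascade, which induces both growth genes and inhibitors of the same cascade. In the lung this signalling is known for its part in epithelial repair and in the growth of fibroblasts.

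In the GRCm38 annotation Epgn, Ereg, Areg and Btc lie on chromosome 5, Tgfa on chromosome 6 and Egfr on chromosome 11. Among the RefSeq start-site sequences (GRCm38.p6) that were searched, 5 of the 8 genes were matched, namely Areg, Btc, Egfr, Epgn and Tgfa. This count covers the searched sequences only and does not show what the full RefSeq set holds. The 250 bases before the start are shown for Egfr, the most abundant transcript of the family per length, and for Areg, one of its scarce transcripts, which lies beside Ereg on chromosome 5 but was read at most 10 times in a library. Capitals mark the letters of 4 searched motifs on either strand: the cyclic AMP response element TGACGTCA, the AP-1 motif TGANTCA, the TATA box TATAAA and the GC box GGGCGG. Both sequences are on the plus strand, Areg at chr5:91139349-91139598 and Egfr at chr11:16751953-16752202.
Areg: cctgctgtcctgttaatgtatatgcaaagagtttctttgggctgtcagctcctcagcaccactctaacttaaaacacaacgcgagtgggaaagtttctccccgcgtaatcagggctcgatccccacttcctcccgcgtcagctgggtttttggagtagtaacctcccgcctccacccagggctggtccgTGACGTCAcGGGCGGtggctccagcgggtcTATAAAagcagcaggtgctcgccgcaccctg
Egfr: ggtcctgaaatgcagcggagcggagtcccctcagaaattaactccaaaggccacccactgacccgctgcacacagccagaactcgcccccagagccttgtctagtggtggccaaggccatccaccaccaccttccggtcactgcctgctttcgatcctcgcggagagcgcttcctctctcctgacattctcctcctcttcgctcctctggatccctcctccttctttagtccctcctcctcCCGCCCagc
The Areg sequence held the response element 61 bases before the start, a GC box 52 bases before it and a TATA box 31 bases before it. The Egfr sequence held 1 GC box, read on the opposite strand, 9 bases before the start. Of the 32851 searched start-site sequences of this length, 1.55% held the response element, 6.75% the AP-1 motif, 12.4% the TATA box and 32.7% the GC box. The G and C content was 57.2% for Areg and 60.8% for Egfr, against a median of 52.4% over the same sequences. A match is a description of letters and says nothing of what binds there.

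The targeted gene Cgas was at 2.07 ± 0.255 CPM over 6 KO libraries (mean ± SD), against 8.24 ± 1.75 CPM over 5 WT libraries, and no KO library reached a WT library. Its log2 difference was −1.98 (SE 0.15, edgeR adjusted p = 0.000958). Total counts ran from 27261958 to 48039328 per library, and 3 counts, the number that a count of 0 allows, came to 0.0609 to 0.11 CPM. The 12 fibroblast markers all passed the low-count filter, and their summed level was 37800 to 54300 CPM across the libraries. Leukocyte and macrophage markers summed to 5720 to 13900 CPM, with Cd3e and Ly6g never above 3 counts. The names of the libraries were styled one way for females and another for males, and the labels name no batch.

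Across all libraries the receptor was above each of its ligands. Levels were compared between genes as CPM per kilobase of exon (union of the annotated exons, GRCm38). Egfr was at 19.3 ± 4.44 CPM per kilobase (SD, n = 11), Ereg at 6.43 ± 2.12, Hbegf at 2.21 ± 0.915 and Nrg1 at 0.7 ± 0.327. The ratio of Egfr to the 7 ligands summed was 0.977 to 3.19, lowest in WT male 1. Each of these 4 genes exceeded the next in 11 of 11 libraries, although the ranges of Hbegf and Nrg1 over all libraries overlapped. The next 3 genes were low: Btc at 0.111 ± 0.0435, Areg at 0.0956 ± 0.072 and Tgfa at 0.0895 ± 0.051 CPM per kilobase. Their order did not hold from library to library, since Btc exceeded Areg in 7 and Areg exceeded Tgfa in 4 of 11 libraries. With the longest transcript in place of the union of exons, Tgfa took the fifth place, Btc the sixth and Areg the place after it. The first 4 places held with that length, but Hbegf exceeded Nrg1 in 10 of 11 libraries and the ranges of Ereg and Hbegf overlapped. Epgn was last, at 0.0185 ± 0.0241 CPM per kilobase.

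**Figure D1:**
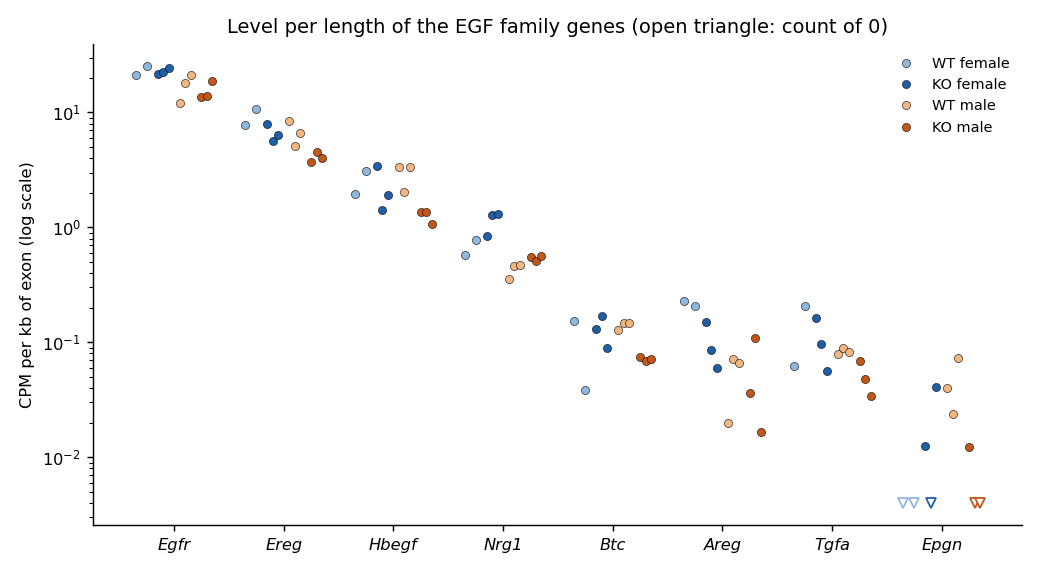
Level of each gene in each of the 11 libraries, in CPM per kilobase of exon on a log scale, coloured by genotype and sex, with open triangles for a count of 0. Egfr lies at 12.1 to 25.4, Ereg at 3.7 to 10.7, and Btc, Areg and Tgfa overlap between 0.0167 and 0.231.

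Ereg is left out of the counts of members between KO and WT, since its own difference chose the family. Over both sexes none of the 5 other members that could be tested between KO and WT passed the adjusted threshold of 0.05 (edgeR quasi-likelihood test). The background in this comparison was 0.0045%, which was Cgas alone among 22226 entries. Without adjustment 2 of the 5 were under 0.05, Hbegf lower and Nrg1 higher in KO, against 17.2% of all entries. Neither DESeq2 (background 2.46%) nor limma-voom (background 12.6%) called any of the 5. Areg and Epgn were too low for this fit.

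In males none of the 6 other members tested passed in edgeR (background 1.22%). Hbegf and Btc were under 0.05 without adjustment, both with lower values in KO, against 22.1% of all entries. Hbegf passed with DESeq2 (background 9.3%) and Btc with limma-voom (background 18.3%). None of the 6 passed in females (background 0.00437%), where Nrg1 alone was under 0.05 without adjustment, against 6.63%, and neither DESeq2 (0.0262%) nor limma-voom (0.0%) called one of them. The KO effect differed between the sexes past the edgeR threshold for none of 7 members, Ereg included (background 0.0%). Without adjustment Btc was under 0.05 there, against 12.9% of all entries, and DESeq2 (0.996%) and limma-voom (0.0%) called no member.

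Ereg (ENSMUSG00000029377) encodes epiregulin, a ligand of EGFR and ERBB4. Its level was 32.8, 23.1 and 26.1 CPM in the KO females and 15.3, 18.7 and 16.7 CPM in the KO males. The WT females were at 32.1 and 44.1 CPM, and the WT males at 34.6, 21.1 and 27.3 CPM. The KO males were the 3 lowest of the 11 libraries and lay below every WT male, while KO and WT females overlapped, KO female 1 being above WT female 1. The KO mean was 22.1 ± 6.6 CPM (SD, n = 6) against a WT mean of 31.8 ± 8.54 CPM (SD, n = 5), a log2 difference of −0.61 (SE 0.15). It was −0.71 (SE 0.20) in males and −0.48 (SE 0.22) in females. With limma-voom these values were −0.36 over both sexes, −0.4 in males and −0.52 in females, and without WT female 2 the female value was −0.24. These differences chose the gene and are given with no test. The difference between those 2 effects was −0.23 (SE 0.29, edgeR adjusted p = 0.75), and limma-voom gave 0.12, of the opposite sign. In a culture read in bulk, fewer cells that make a transcript and less of it per cell cannot be told apart. An antisense gene, Gm19610, overlaps Ereg and held 737 counts against 11848 for Ereg over all libraries, and the strand setting of the counting was not given in the sources used here.

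Hbegf (ENSMUSG00000024486) encodes heparin-binding EGF-like growth factor, which binds EGFR and ERBB4, and lies on chromosome 18 (GRCm38). It was at 16.4, 6.85 and 9.31 CPM in the KO females and 6.54, 6.56 and 5.24 CPM in the KO males. WT females had 9.45 and 14.9 CPM, and WT males 16.3, 9.78 and 16.3 CPM. Every KO male lay below every WT library of either sex, whereas KO female 1 was the highest of all 11 libraries. KO libraries averaged 8.48 ± 4.09 CPM (SD, n = 6), WT libraries 13.3 ± 3.45 CPM (SD, n = 5). The log2 difference was −0.75 (SE 0.28, edgeR adjusted p = 0.219) over both sexes, −1.21 in males (SE 0.32, edgeR adjusted p = 0.0684) and −0.17 in females (SE 0.35, edgeR adjusted p = 0.869). The effect in males minus that in females was −1.04 (SE 0.48, edgeR adjusted p = 0.391). The male difference passed with DESeq2 (adjusted p = 0.00468, background 9.3%) and with no low-count filter (edgeR adjusted p = 0.0269, background 2.82%). It also passed in edgeR without WT male 2 (adjusted p = 0.0437, background 4.28%). Without WT female 1 or WT female 2, which leaves a lone WT female, it was −1.21 and −1.19. In females the sign turned without WT female 2 (0.19) and without KO female 2 (0.08). KO female 1 also had the highest marker sums among the KO libraries for 3 other cell types. They were 126 CPM for mesothelial markers against 13.7 to 52.9 CPM in the other 5, 3080 against 1070 to 2160 CPM for smooth muscle and pericyte markers, and 39.8 against 12.9 to 23.2 CPM for epithelial markers. KO female 1 was not the highest KO library for endothelial markers (78 against 55.3 to 105 CPM) or leukocyte and macrophage markers (8740 against 8150 to 13900 CPM). The smooth muscle and pericyte sums were highest of all in WT male 1 (3610 CPM) and WT male 3 (4040 CPM), the libraries next to KO female 1 in Hbegf. In WT males 1, 2 and 3 the mesothelial sums were 24.7, 107 and 191 CPM and the epithelial sums 24.1, 60.7 and 48.7 CPM. The part of those cells in the Hbegf levels was not tested.

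Btc (ENSMUSG00000082361) encodes betacellulin, a ligand of EGFR and ERBB4, and was read 7 to 37 times a library. Its level was 0.589, 0.769 and 0.403 CPM in the KO females and 0.334, 0.309 and 0.325 CPM in the KO males. WT females had 0.686 and 0.175 CPM, and WT males 0.582, 0.671 and 0.663 CPM. The KO males were close together and below every WT male, while KO females 1 and 3 lay between the WT females and KO female 2 lay above both. In males the log2 difference was −0.98 (SE 0.40, edgeR adjusted p = 0.185) and in females 0.52 (SE 0.46, edgeR adjusted p = 0.7). The difference between the sexes was −1.50 (SE 0.61, unadjusted p = 0.033, edgeR adjusted p = 0.352). The female value rests on 2 WT libraries: it was 1.76 without WT female 1 and −0.2 without WT female 2. The difference between the sexes was −2.74 without WT female 1. In males Btc passed with limma-voom (adjusted p = 0.0265, background 18.3%). The male value was −0.98 without WT female 1 and −0.96 without WT female 2. Over both sexes the difference was −0.34 (SE 0.37, edgeR adjusted p = 0.663).

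Tgfa (ENSMUSG00000029999) encodes transforming growth factor alpha, a ligand of EGFR, and was read 10 to 53 times a library. KO females had 1.06, 0.623 and 0.367 CPM, KO males 0.445, 0.309 and 0.223 CPM, WT females 0.405 and 1.33 CPM, and WT males 0.51, 0.584 and 0.53 CPM. The 3 WT males were alike and above all KO males, and the females of both genotypes spread more widely. The log2 difference was −0.54 over both sexes (SE 0.34, edgeR adjusted p = 0.432), −0.74 in males (SE 0.49, edgeR adjusted p = 0.41) and −0.33 in females (SE 0.50, edgeR adjusted p = 0.81). In females the sign turned without WT female 2 (0.78).

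Areg (ENSMUSG00000029378), which encodes amphiregulin, and Epgn (ENSMUSG00000035020), which encodes epigen, were at or near the limit of detection. Areg had 8, 5 and 2 counts in the KO females, 2, 6 and 1 in the KO males, 9 and 10 in WT females, and 1, 4 and 3 in WT males. The WT females were the highest at 0.281 and 0.251 CPM, and KO female 1 followed at 0.181 CPM. In the fit with a mean per genotype and sex, Areg did not pass between KO and WT in females (edgeR adjusted p = 0.67) or in males (edgeR adjusted p = 0.99). Epgn had 14 counts in all libraries together, 10 of them in the WT males, and no library held more than 5. A difference in Epgn was not detectable at this depth.

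Nrg1 (ENSMUSG00000062991) encodes neuregulin 1, a ligand of ERBB3 and ERBB4, lies on chromosome 8 (GRCm38) and was the only member tested over both sexes with a higher fitted level in KO. Its level was 8.76, 13.3 and 13.6 CPM in the KO females, and 5.67, 5.25 and 5.89 CPM in the KO males. WT females were at 5.93 and 8.04 CPM, and WT males at 3.64, 4.78 and 4.83 CPM. Within each sex every KO library was above every WT library, which held for 1 of the 5 members other than Ereg and for 3.2% of all entries. Across the sexes the genotypes overlapped, since the WT females were above the KO males. KO libraries averaged 8.74 ± 3.84 CPM (SD, n = 6) and WT libraries 5.44 ± 1.66 CPM (SD, n = 5). The log2 difference was 0.53 over both sexes (SE 0.15, edgeR adjusted p = 0.173), 0.76 in females (SE 0.22, edgeR adjusted p = 0.67) and 0.34 in males (SE 0.20, edgeR adjusted p = 0.332). The effect in males minus that in females was −0.42 (SE 0.29, edgeR adjusted p = 0.543).

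Egfr (ENSMUSG00000020122), the receptor, was at 242, 252 and 277 CPM in the KO females and 154, 158 and 210 CPM in the KO males. WT females had 239 and 287 CPM, and WT males 137, 205 and 239 CPM. KO and WT overlapped in both sexes. The KO mean of 216 ± 50.7 CPM (SD, n = 6) was set against a WT mean of 221 ± 55.5 CPM (SD, n = 5), with a log2 difference of −0.10 (SE 0.14, edgeR adjusted p = 0.747). The difference was −0.15 in males (SE 0.19, edgeR adjusted p = 0.685) and −0.03 in females (SE 0.21, edgeR adjusted p = 0.961). Leaving out WT male 3 turned the male value to 0.03, and leaving out WT female 2 turned the female value to 0.1. The antisense gene Egfros held 720 counts against 98085 for Egfr.

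**Figure D2:**
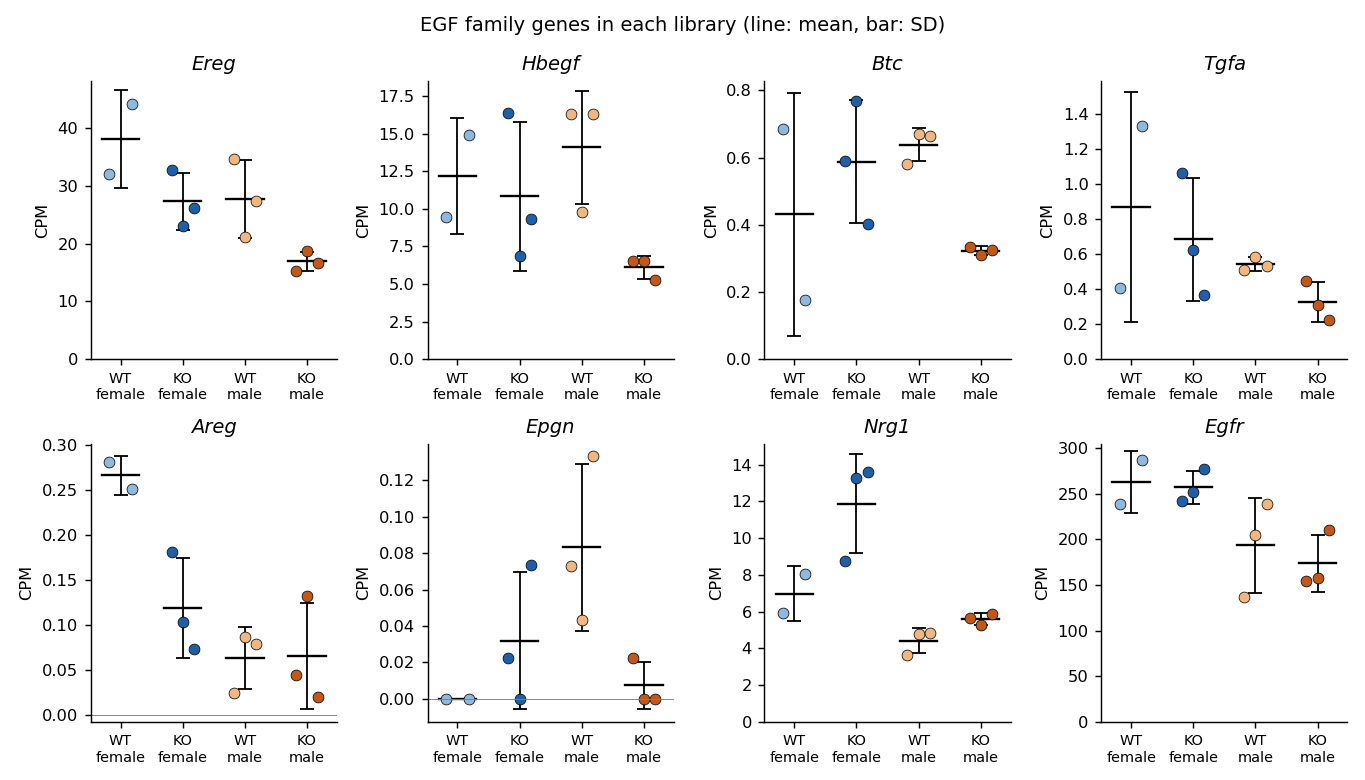
CPM of the 8 genes in each library (points), with the mean (line) and SD (bar) of each genotype and sex. The 3 KO males lie below the 3 WT males for Ereg, Hbegf, Btc and Tgfa, and the KO libraries lie above the WT libraries of the same sex for Nrg1.

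Set side by side, 3 of the 5 members other than Ereg at a testable level, Hbegf, Tgfa and Btc, had all 3 KO males below all 3 WT males, against 14.0% of all entries. None of the 5 had all KO females below the WT females, which 8.4% of all entries had. The median log2 difference over the 6 members tested in this fit, Ereg left out, was −0.444 in males, beside −0.019 over all entries, and −0.101 in females, beside 0.025. Other markers differed between the same males. The 8 smooth muscle and pericyte markers summed to 1070 to 1790 CPM in KO males and 2240 to 4040 CPM in WT males, and 3 of 8 fell, Myh11, Cnn1 and Mcam (edgeR adjusted p = 0.048 each, background 1.22%). Without adjustment 6 of the 8 were lower in KO and 1 was higher, Notch3 (log2 0.48, SE 0.18, edgeR adjusted p = 0.149). The leukocyte and macrophage markers summed to 8280 to 13900 CPM in KO males and 5770 to 7780 CPM in WT males, and 2 of 15 tested rose, Cd68 and Adgre1 (edgeR adjusted p = 0.048 each). These 5 calls stand at the edge of the threshold. Endothelial markers summed to 55.3 to 102 CPM in KO males and 40.2 to 90 CPM in WT males. None of the 8 passed (smallest edgeR adjusted p = 0.0501), and without adjustment 5 were lower and 2 higher in KO. Epithelial markers summed to 12.9 to 16.2 CPM in KO males and 24.1 to 60.7 CPM in WT males, with none of 10 past the threshold and Krt14 never above 3 counts. The part of these cell types in the male differences was not tested.

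**Figure D3:**
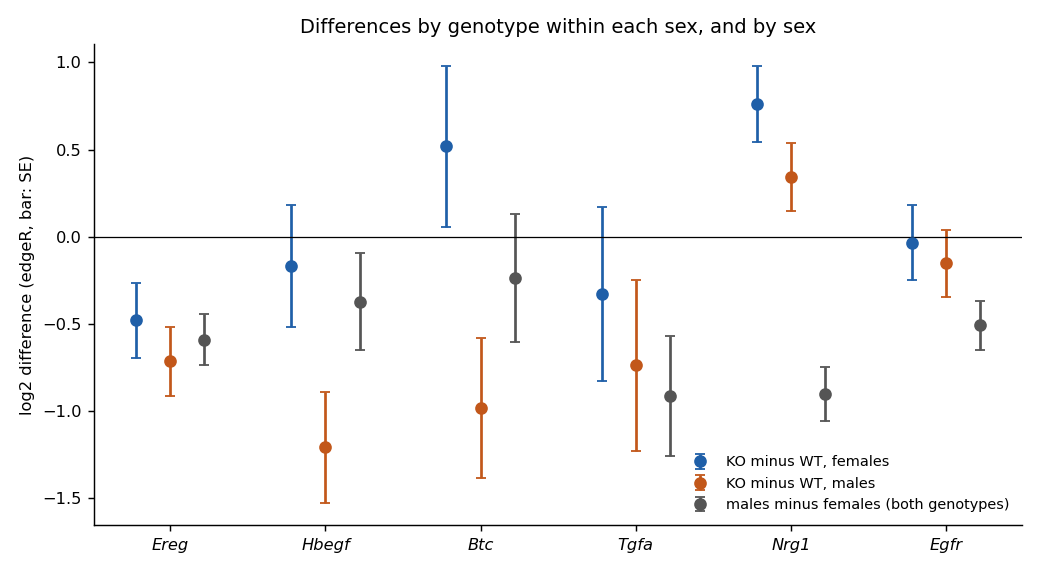
Fitted log2 difference (point) and SE (bar) of the 6 genes tested in both fits, for KO minus WT in females, KO minus WT in males, and males minus females over both genotypes. Hbegf is at −1.21 in males and −0.17 in females, Btc at −0.98 and 0.52, and all 6 are below 0 for males minus females.

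The contrast of males and females played no part in choosing the genes. Sex coincided with the style of the library names, so sex and a possible difference in preparation cannot be told apart in it. Of the 6 tested members 2 were lower in males (edgeR), Nrg1 and Ereg, and none was higher, with a background of 4.85% in either direction and 2.2% lower. All 6 had a negative value, with a median of −0.549 beside 0.019 over all entries. Nrg1 was at 9.92 ± 3.38 CPM in females (SD, n = 5) and 5.01 ± 0.805 CPM in males (SD, n = 6). It was lower by a log2 difference of −0.90 (SE 0.15, edgeR adjusted p = 0.0157), and every male was below every female. Ereg was at 31.6 ± 8.05 CPM in females (SD, n = 5) and 22.3 ± 7.37 CPM in males (SD, n = 6), a difference of −0.59 (SE 0.15, edgeR adjusted p = 0.0475). Among KO libraries the sexes did not overlap for Ereg, but WT male 1, at 34.6 CPM, exceeded WT female 1. Egfr was at 259 ± 21.5 CPM in females (SD, n = 5) and 184 ± 39.7 CPM in males (SD, n = 6), and its difference of −0.51 did not pass (SE 0.14, edgeR adjusted p = 0.0567). The highest male and the lowest female were both at 239 CPM for Egfr, the male just below. Nrg1 and Egfr were the 2 of 6 members with every male below every female, against 1.99% of all entries.

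The remaining members did not pass between the sexes. Tgfa was at −0.91 (SE 0.34, edgeR adjusted p = 0.116), and at −1.18 without WT female 1, which leaves a lone WT female. Hbegf was at −0.37 (SE 0.28, edgeR adjusted p = 0.413) and Btc at −0.23 (SE 0.37, edgeR adjusted p = 0.71). The Ereg call depended on single animals. It was lost without KO female 1, 2 or 3, KO male 1, 2 or 3, WT female 2 or WT male 2 (edgeR adjusted p = 0.0725 to 0.111), with log2 differences between −0.5 and −0.63. The Nrg1 call was lost without KO male 2 (−0.85, edgeR adjusted p = 0.0601) and without WT female 2 and KO male 1 together (−0.86, edgeR adjusted p = 0.0758). Egfr passed with DESeq2 (adjusted p = 0.0104, background 12.8%) and with limma-voom (adjusted p = 0.00514, background 26.8%). In edgeR it passed without WT male 3 (adjusted p = 0.0318, background 8.12%). Without WT female 1 it was −0.56.

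Per length, epiregulin transcripts took the highest share of the ligand transcripts in every library. The 7 ligands together were at 8.21 ± 2.69 CPM per kilobase in KO (SD, n = 6) and 11.4 ± 2.59 in WT (SD, n = 5). KO males were the lowest group, at 5.79, 6.61 and 5.83 CPM per kilobase, and WT males were at 12.4, 7.94 and 10.8. The share of Ereg was 61.2% to 72.3%, that of Hbegf 16.4% to 31.1%, and that of Btc, Tgfa, Areg and Epgn together 2.11% to 4.2%. Nrg1 took 6.7% to 14.9% in KO and 2.84% to 5.82% in WT, with no overlap. With the longest transcript as length, a choice made after seeing the data, the share of Ereg was 48.8% to 61.6%, that of Hbegf 21.9% to 41.5%, and that of Nrg1 10.3% to 22.7% in KO and 4.48% to 9.03% in WT. The ratio of Nrg1 to Ereg per kilobase was 0.107 to 0.229 in KO and 0.042 to 0.0902 in WT. Since Ereg was chosen for being lower in KO and is the largest part of the sum, these sums, shares and ratios are descriptions with no test. The ratio of Nrg1 to Hbegf counts, which leaves Ereg out, was 0.801 to 1.12 in KO males and 0.223 to 0.489 in WT males. In females it was 0.535 to 1.94 in KO and 0.54 to 0.627 in WT, with overlap.

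**Figure D4:**
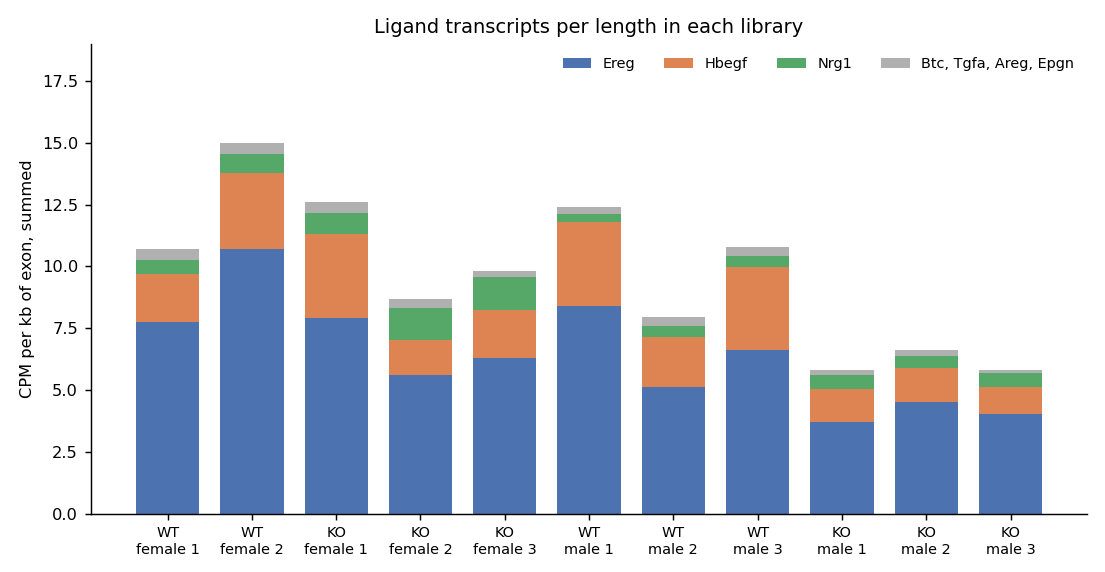
Summed level of the 7 ligands in each library, in CPM per kilobase of exon, split into Ereg, Hbegf, Nrg1 and the other 4. The 3 KO males have the shortest bars, 5.79 to 6.61, and Ereg fills 61.2% to 72.3% of every bar.

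Of the 70 genes placed around the receptor in 5 lists, 67 were tested, and none passed between KO and WT over both sexes in edgeR. Without adjustment 17 of the 67 were under 0.05, against 17.2% of all entries. DESeq2 called 6 of the 67 (background 2.46%) and limma-voom 15 (background 12.6%). Their median log2 difference was 0.034, beside −0.008 over all entries. The other ERBB receptors and ligands numbered 7, of which Erbb4 and Nrg3 were too low to test, Nrg3 having no count in any library. Erbb2, the co-receptor without a ligand of its own, was at 29.7 ± 4.72 CPM (SD, n = 11) and differed by −0.08 (SE 0.14, edgeR adjusted p = 0.809). Erbb3, the receptor of neuregulins that needs a partner kinase, was at 3.37 ± 1.23 CPM and differed by 0.49 (SE 0.21, edgeR adjusted p = 0.272). Nrg2 differed by −0.89 (SE 0.39, edgeR adjusted p = 0.273), Egf by −0.24 (SE 0.25, edgeR adjusted p = 0.64) and Nrg4 by 0.09 (SE 0.11, edgeR adjusted p = 0.684).

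In the other lists the 3 genes with the smallest p were taken. Among 9 genes of ligand release, the sheddases Adam15, Adam17 and Adam19 differed by 0.22, 0.32 and −0.40 (edgeR adjusted p = 0.175, 0.197 and 0.201). Among 20 adaptors and kinases, Pik3r1, Grb2 and Mapk3 differed by 0.36, 0.42 and 0.16 (edgeR adjusted p = 0.173, 0.182 and 0.276). The ubiquitin ligase Cblb, the endocytic protein Eps15 and the phosphatase Ptpn1 led the 14 tested genes of receptor attenuation, at 0.33, 0.34 and 0.44 (edgeR adjusted p = 0.173, 0.189 and 0.206). Of 19 ERK feedback and target genes, Fosl1, Etv1 and Etv4 were at −0.47, 0.68 and −0.92 (edgeR adjusted p = 0.173, 0.173 and 0.189).

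In males 4 of the 67 genes passed between KO and WT (background 1.22%), and they were named after their values were seen. Etv4, an ERK-induced transcription factor, fell from 16.9, 9.78 and 15.7 CPM in the WT males to 3.74, 5.19 and 4.92 CPM in the KO males (log2 −1.61, SE 0.24, edgeR adjusted p = 0.048). Dusp5, a phosphatase that acts on ERK, fell from 22.4, 16.2 and 22.8 CPM to 7.12, 8.52 and 6.72 CPM (log2 −1.46, SE 0.24, edgeR adjusted p = 0.048). Grb2, the adaptor that links receptors to SOS, rose from 122, 149 and 126 CPM to 249, 224 and 177 CPM (log2 0.71, SE 0.13, edgeR adjusted p = 0.048). Adam17, the main sheddase of these ligands, rose from 119, 144 and 117 CPM to 196, 194 and 162 CPM (log2 0.54, SE 0.11, edgeR adjusted p = 0.048). In females the 4 values were −0.01, 0.25, 0.06 and 0.05 in the same order, and the difference between the sexes did not pass for any of them (edgeR adjusted p = 0.308 to 0.312). All 4 calls stand at the edge of the threshold. Each was lost without KO female 2 or 3, KO male 1 or 2, or WT male 1 or 3 (edgeR adjusted p = 0.078 to 0.205), and Grb2 and Adam17 also without KO female 1 (0.0623 each). With RLE scaling none of the 67 passed in males (edgeR adjusted p = 0.0509 for each of the 4). The marker sums of smooth muscle and pericytes and of leukocytes and macrophages differed between the same males, as given above. The part of those cells in these 4 differences was not tested.

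**Figure D5:**
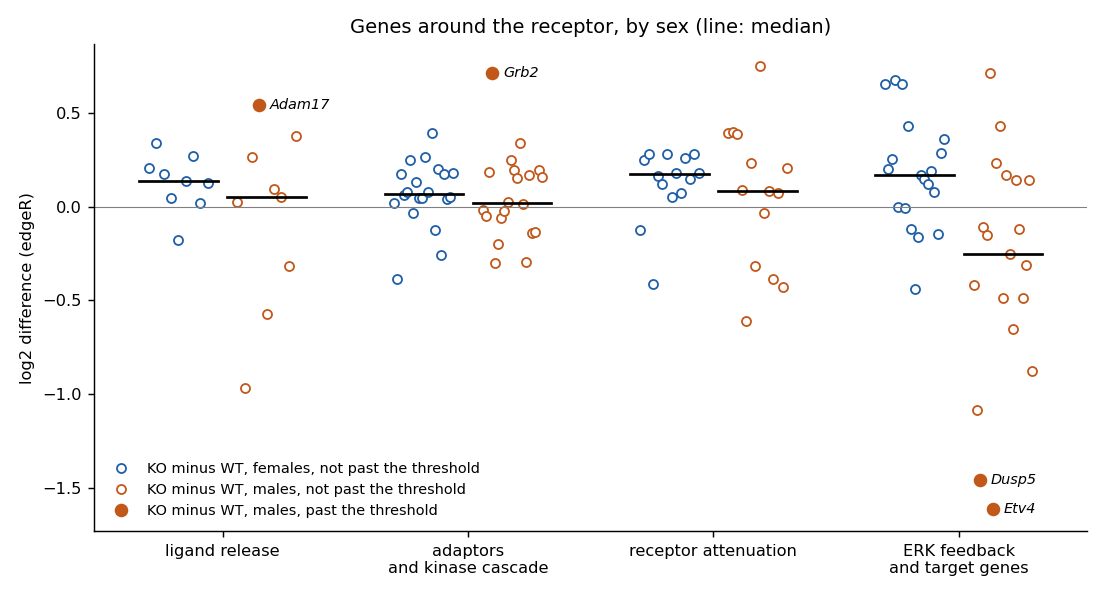
Log2 difference KO minus WT of each tested gene of 4 lists around the receptor, in females (left) and males (right), with the median as a line and filled points past the threshold. Etv4 and Dusp5 lie lowest in males, at −1.61 and −1.46, and Grb2 and Adam17 are at 0.71 and 0.54.

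Between males and females 6 of the 67 genes passed, beside the background of 4.85%, and 5 of these were higher in males: the sheddase Adam15, the small GTPase Nras, the ubiquitin ligases Cblb and Rnf41, and the AP-1 subunit Fos. Of 19 other settings Fos passed in 15, Adam15 in 10, Rnf41 in 5 and Nras in 4. Errfi1, which encodes an inhibitor of EGFR, was the one lower in males. Errfi1 was at 170, 143 and 211 CPM in KO females, 173 and 292 CPM in WT females, 104, 104 and 106 CPM in KO males and 77.6, 111 and 107 CPM in WT males. Every male was below every female, and the log2 difference was −0.96 (SE 0.16, edgeR adjusted p = 0.0158). It missed the threshold without KO female 3 (edgeR adjusted p = 0.0546) or KO male 2 (0.0514). Cblb, whose product marks EGFR for degradation, was at 84 to 121 CPM in males and 58.6 to 77.7 CPM in females (log2 0.57, SE 0.07, edgeR adjusted p = 0.00484), and it passed in all 19 other settings. Apart from Adam15 and Cblb, these genes were named after their values were seen. As for the members, sex and a possible difference in preparation cannot be told apart here.

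The genes whose levels most resembled those of each abundant member were ranked by Pearson's r of log2 CPM over the 11 libraries, among 11524 genes. For Ereg they were Prdm15 (r = 0.972), Selenoi (0.965), Runx2 (0.964), Csnk1e (0.96) and Hsph1 (0.952). For Hbegf they were Mmd (0.976), Ttll7 (0.975) and Ccn2 (0.963), and for Egfr Zfp354c (0.975), Arhgap28 (0.942) and Rnf122 (0.941). For Nrg1 they were Serpinc1 (0.931), Purg (0.9) and Fmod (0.886). Spearman's rho was 0.818 to 0.964 for these 14 genes, and r without the 2 libraries farthest from the median was 0.708 to 0.986. Runx2, a transcription factor of bone and connective tissue, ran from 18.3 to 38.4 CPM, with group means of 26.8 in KO females, 19.4 in KO males, 32.4 in WT females and 25.1 in WT males. After the 4 group means were taken out, r was 0.849 to 0.902 for the 5 genes of Ereg. For Nrg1 it was 0.63 with Serpinc1, 0.928 with Purg and 0.858 with Fmod. The libraries share their depth, culture and genotype groups, and the genes were picked for a high r, so no p-value is given.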

How the data were processed

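RNA-seq libraries of 11 mice were analysed from the authors' deposited tables of raw whole-number counts per gene, 1 table per library and with no normalization, as their whole-number values and unequal totals show. The submitters' processing notes name Trim Galore, STAR and the GRCm39 build. Tool versions, the counter, its strand option, its gene models and its handling of multiply matching reads are not given in the sources used here. Per the labels, the extraction protocol speaks of tissue, the sample labels of cultured fibroblasts. Each table held 58223 entries, 56980 genes and 1243 repeat subfamilies; repeats took 5.31% to 10.2% of the counts and stayed in the library sizes. GENCODE vM21 (GRCm38) gave a symbol to 52125 genes and was used for names, exon lengths and neighbours only.

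Differences were tested with edgeR 4.0.16 in R 4.3.3 (quasi-likelihood test, two-sided, with TMM factors from all entries and entries kept by filterByExpr at a minimum count of 10 for the design of each fit, Benjamini-Hochberg over all entries tested). KO against WT over both sexes and males against females came from a model with sex and genotype (22226 entries, 8 residual degrees of freedom). Within-sex and sex-difference contrasts came from a model of the 4 group means (22889 entries, 7 residual degrees of freedom). The low-count filter was first run by the 4 groups and then by the design of each fit, after results were seen, and the first form is given as an alternative. Prior count 2 was used for log2 CPM. The scripts were tested on simulated counts, with KO against WT over both sexes and changed genes at a mean of at least 1 CPM. Of 71 genes with a true log2 difference of 0.6, 40.8% passed. At a true difference of 1 it was 79.1% of 67 genes, and at 2 it was 100% of 62. A difference near 0.6 can therefore fail to pass. TMM factors were 0.963 to 1.03. Libraries of 1 group differed by a chi-square per degree of freedom of 12 to 144 where 2 libraries together held at least 20 counts, so none was a copy of another. Each library is 1 mouse, and floors cover counting error only, since reads carried no molecular identifiers.

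The members and all gene lists were chosen with earlier results of these data known. Named beside the members were Cgas, the other ERBB receptors and ligands, the 3 genes with the smallest p of each other list, and the genes most like each member with a mean of at least 1 CPM. Exceptions are marked in the text. Alternatives were RLE scaling, TMM over genes only or over entries past the filter, other low-count filters, DESeq2 1.42.0, limma-voom 3.58.1 with sample weights, no sex term, a replicate block, and leaving out each library.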

Additional observations from a re-analysis of the deposited data

Results flagged for a closer look

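Within each genotype, 14 sets of libraries (7 genes in KO and in WT, Epgn left out) were checked for a library that stood apart, by its gap to the nearest other library over the range of the set. Chance marks about 1 in 20 such sets, and 3 of the 14 were marked. Hbegf was at 16.4 CPM in KO female 1, with a gap of 0.634 of the range of the 6 KO libraries (critical value 0.625). Tgfa was at 1.33 CPM in WT female 2, with a gap of 0.806 of the range of the 5 WT libraries (critical value 0.71). Btc was at 0.175 CPM in the same WT female 2, with a gap of 0.797, on 7 counts. WT female 2 also had the lowest sample weight in limma-voom, 0.14, against 5.64 for WT male 2.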

How the results depend on the processing

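Counts of members past the threshold moved little between scalings and more with single libraries. The share of all entries past the threshold, given as background, moved between the settings too. Between KO and WT, Ereg is not counted. Over both sexes the count was 0 in each setting run. In males 0 became 1 with no low-count filter (background 2.82%) and 1 with DESeq2 (background 9.3%), Hbegf both times. It became 1 with limma-voom (Btc, background 18.3%) and 1 without WT male 2 (Hbegf, background 4.28%). Fits without WT female 1 or 2 leave a lone WT female and are not counted here for males, females or the difference between the sexes. In the other fits of females and of the difference between the sexes the count stayed 0. Between the sexes 2 members passed (background 4.85%). Without 1 library other than a WT female, the count ran from 0 (without KO male 2, background 0.508%) to 3 (without WT male 3, background 8.12%). Genes around the receptor over both sexes went from 0 to 6 with DESeq2 (background 2.46%) and 15 with limma-voom (background 12.6%). Their count stayed 0 without each library other than a WT female. In males their count of 4 became 0 with RLE scaling (background 0.0349%) and 8 with no filter (background 2.82%). It became 14 with DESeq2 (background 9.3%), 19 with limma-voom (background 18.3%) and 0 with the replicate block (background 0.0%). Without 1 library other than a WT female the count moved each time. The background then ran from 0.0% (without KO male 1, for one) to 4.92% (without KO male 3). Between the sexes their count of 6 became 11 with DESeq2, 28 with limma-voom, 2 without WT female 2 and KO male 1 together and 1 to 12 without each library. Leaving out WT female 1 leaves a lone WT female, which is assumed to vary like the other groups; 7.06% of all entries then passed over both sexes, against 0.0045%. Over both sexes 547 entries passed with DESeq2 and 2792 with limma-voom, against 1. In males 8 passed with RLE scaling, 1079 with no filter, 2128 with DESeq2 and 4192 with limma-voom, against 279. Between the sexes 2854 entries (12.8%) passed with DESeq2 and 5948 (26.8%) with limma-voom, against 1077 (4.85%). The cause was not tested.

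Values that changed sign were small or rested on few counts. Over both sexes Erbb2 was 0.02 without KO male 1 and Nrg4 −0.04 with limma-voom. In males Areg, on 17 counts in all, was −0.93 without KO male 2 and −0.35 without WT male 1, and Egfr 0.03 without WT male 3. In females Hbegf was 0.08 without KO female 2, 0.19 without WT female 2 and 0.18 when KO male 1 was left out with it; these 2 settings gave 0.78 and 0.77 for Tgfa, −0.2 and −0.21 for Btc, and 0.1 and 0.09 for Egfr. For the difference between the sexes, Ereg was 0.12 with limma-voom, Tgfa 0.06 without KO female 1 and 0.17 without WT female 1, and Egfr 0.01 without WT female 1 and 0.08 without WT male 3. Without each library in turn, the range was −0.93 to 0.45 for Areg in males, −0.36 to 0.03 for Egfr in males, −0.61 to 0.19 for Hbegf, −0.91 to 0.78 for Tgfa, −0.2 to 1.76 for Btc and −0.16 to 0.1 for Egfr in females, and −1.5 to 0.17 for Tgfa and −0.3 to 0.08 for Egfr between the sexes. With the filter by the 4 groups no member changed its call (Ereg between the sexes, edgeR adjusted p = 0.0485).

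Replicate numbers did not pair KO and WT libraries: the correlation of deviations from group means was −0.148 to 0.0722 between libraries of 1 sex with the same number and −0.238 to 0.193 otherwise. With the replicate block 0 members passed over both sexes, in males, in females and for the difference between the sexes, as without it; Nrg1 was 0.47 and Hbegf −0.79 over both sexes, and Tgfa in females 0.04. The contrast of males and females cannot be had with that block. Depth limits Areg and Epgn most, with at most 10 and 5 counts a library, then Btc and Tgfa.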
